A study of Mus musculus with 13 samples.

Results

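The subunits of the muscle nicotinic acetylcholine receptor are followed here at 3 intervals of the mouse genome, one for Chrna1, one shared by Chrnd and Chrng, and one for Chrnb1. The intervals were fixed by position and not by a measured value, although earlier results of these data were known when they were chosen. In mm9 coordinates the Chrna1 window ran on chromosome 2 from 73385000 to 73435000, the Chrnd-Chrng window on chromosome 1 from 89070000 to 89120000, and the Chrnb1 window on chromosome 11 from 69590000 to 69620000. Merging the overlapping peaks of all 12 libraries gave 73 regions in these windows, 34 around Chrna1, 32 around Chrnd and Chrng and 7 around Chrnb1, of 211369 regions in the genome.

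The measurement was chromatin immunoprecipitation and sequencing of histone H3 acetylated at lysine 27 (H3K27ac), a mark found at active promoters and enhancers, in C2C12, a mouse myoblast line that fuses into myotubes when serum is lowered. Wild-type cells were sampled at -24, 0, 6, 12, 24, 48 and 72 h relative to the change to differentiation medium (DMEM with horse serum). The 5 edited C2C12 lines, all made with CRISPR/Cas9 and all taken at 48 h, were Myod1_KO, which lacks MyoD, and H1_KO, H3_KO, H23_KO and H34_KO, which lack stretches that the submitters named hotspots. H23_KO was made by removing H3 from a line without H2, and H34_KO by removing H3 from a line without H4, so H3_KO, H23_KO and H34_KO share the H3 deletion. The CRISPR control library at 48 h was not analysed here, and the wild-type 48 h library served as reference. There was 1 library per condition, so no difference could be set against replicate spread and no test between conditions was run. Whether an edited line came from a single clone is not given in the sources used here.

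The muscle receptor is a ligand-gated cation channel at the neuromuscular junction. Chrna1 encodes the alpha subunit, which carries most of the acetylcholine binding site. Chrnd and Chrng encode the delta and gamma subunits, which complete the binding sites, and Chrnb1 encodes the beta subunit. The gamma subunit belongs to the fetal receptor and is replaced by an epsilon subunit in innervated adult muscle. The subunit genes are switched on as myoblasts become myotubes, and MyoD and related basic helix-loop-helix factors bind E-boxes, short sites of the form CANNTG, in their promoters.

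Promoter sequences are shown because the Myod1 knockout bears on this kind of site. RefSeq promoters of build GRCm38.p6 were found for 3 of the 4 genes, and Chrnd is named only. Each line gives the 250 bases before the annotated start, 5′ to 3′ on the gene's strand, with every CANNTG in capitals. The intervals, in GRCm38.p6 and not in the build of the peaks, are chr2:73580339-73580588 on the minus strand, chr1:87205561-87205810 on the plus strand and chr11:69795938-69796187 on the minus strand.
Chrna1: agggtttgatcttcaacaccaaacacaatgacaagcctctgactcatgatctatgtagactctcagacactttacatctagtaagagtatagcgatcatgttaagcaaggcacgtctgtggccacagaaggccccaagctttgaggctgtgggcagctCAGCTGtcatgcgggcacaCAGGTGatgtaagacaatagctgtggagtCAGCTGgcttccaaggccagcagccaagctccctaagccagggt
Chrng: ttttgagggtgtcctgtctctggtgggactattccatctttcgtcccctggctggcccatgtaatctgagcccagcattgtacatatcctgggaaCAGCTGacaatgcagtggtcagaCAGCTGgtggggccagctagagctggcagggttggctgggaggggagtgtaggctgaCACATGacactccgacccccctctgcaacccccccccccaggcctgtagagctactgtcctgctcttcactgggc
Chrnb1: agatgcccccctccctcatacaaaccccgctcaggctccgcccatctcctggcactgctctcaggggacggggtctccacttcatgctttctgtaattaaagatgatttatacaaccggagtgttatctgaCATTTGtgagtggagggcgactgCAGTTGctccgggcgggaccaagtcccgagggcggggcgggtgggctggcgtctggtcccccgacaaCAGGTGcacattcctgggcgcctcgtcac
Each of the 3 promoters held 3 E-boxes, a number that 12.2% of 32851 mouse promoters of the same length reached or passed. The E-box with the central pair GC, CAGCTG, stood in Chrna1 at 92 to 87 and at 44 to 39 bases before the start. In Chrng it stood at 155 to 150 and at 132 to 127 bases before the start, and in Chrnb1 it was not found. The form CAGGTG stood in Chrna1 at 73 to 68 bases before the start, between the other boxes, and in Chrnb1 at 29 to 24. Among all promoters 66.2% held at least 1 E-box of any kind, 13.0% held the GC form and 17.2% held the GG form. Both strands were searched, the GG form also as its reverse complement, and both forms are special cases of the general E-box. A match describes letters in the window and is no evidence of binding.

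No mm9 annotation was used, so peaks are given by position and are not assigned to a promoter, exon or intron. In the GRCm38.p6 gene order, Chrnd and Chrng are neighbours between the coding genes Prss56 and Eif4e2, Chrna1 lies between Wipf1 and Chn1, and Chrnb1 between Zbtb4 and Fgf11. A peak in a window may therefore belong to a neighbour.

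All 3 windows already carried acetylation in growing myoblasts. The first time with a peak was -24 h in each window, when 29.5% of all 50 kb tiles and 22.1% of all 30 kb tiles of the genome had a peak. Every window also had a peak in each of the 12 libraries, which 19.5% of 50 kb tiles and 13.6% of 30 kb tiles did. A change in these loci could thus show only in how many peaks a window held, how many bases they covered and which regions had one. Covered bases are the bases of a window that lie under a deposited peak.

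In the order -24, 0, 6, 12, 24, 48 and 72 h, used for all wild-type series of values below, the Chrna1 window had 17 peaks over 6380 bases, 13 over 7945, 12 over 7861, 20 over 8284, 12 over 6108, 9 over 8051 and 12 over 6840. The wild-type values kept within 6108 and 8284 bases, with no steady direction over time. The Chrnd-Chrng window had 16 peaks over 6872 bases, 29 over 13986, 18 over 10063, 29 over 12916, 22 over 9677, 16 over 10029 and 22 over 9501. It was lowest at -24 h and highest at 0 h, at 204% of the -24 h value, whereas the whole 0 h list covered 130% of the bases of the whole -24 h list. The Chrnb1 window had 8 peaks over 2537 bases, 12 over 4088, 11 over 3188, 12 over 3712, 9 over 2144, 4 over 2284 and 8 over 2705. It too was highest at 0 h, and at 48 h it held fewer peaks than at any other wild-type time. The 48 h list has another format and wider peaks, with a median of 420 bp, against 203 to 280 bp in the other wild-type lists. Time and list format cannot be told apart for that count.

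At 48 h the Myod1 knockout had the fewest covered bases of the 12 libraries in every window. Its whole list was also the shortest of the 12, with 55585 peaks over 18.3 Mb, and the next lowest, at 24 h, covered 24.5 Mb. A lowest rank in a window or region is therefore not particular to these loci. The knockout had 9 peaks over 4111 bases around Chrna1 (51.1% of wild type), 9 over 3192 around Chrnd and Chrng (31.8%) and 2 over 608 at Chrnb1 (26.6%). The whole knockout list covered 40.3% of the bases of the whole wild-type list, so Chrna1 lay above that share and the others below it. The H1 line had 30 peaks over 15867 bases, 28 over 17427 and 8 over 7490 in the 3 windows in the same order. The H3 line had 18 over 11203, 25 over 12329 and 8 over 4216, and the H23 line 17 over 14859, 18 over 14829 and 10 over 5535. The H34 line had 20 over 13802, 13 over 8909 and 8 over 3256. All 4 hotspot lists were longer than the wild-type list and covered 129% (H3) to 179% (H23) of its bases. Against that, H34 had 88.8% of the wild-type bases in the Chrnd-Chrng window, with a whole list at 161%, and H1 had 328% in the Chrnb1 window, with a whole list at 155%.

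**Figure D1:**
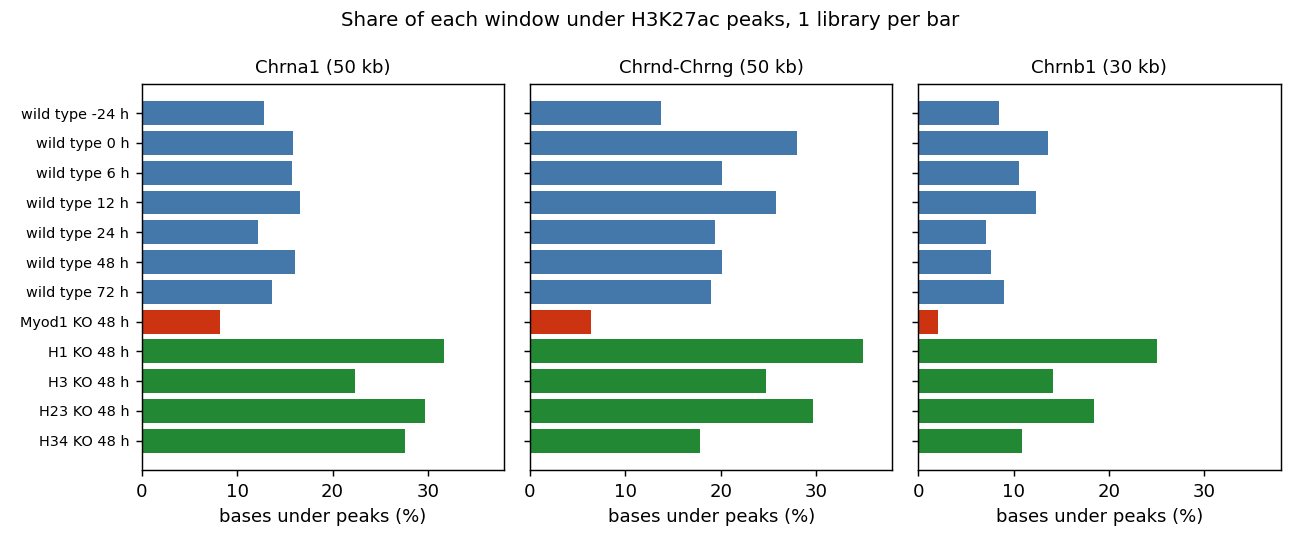
Percent of the bases of each window under a peak (x axis), by library (rows), with wild-type times in blue, the Myod1 knockout in red and the hotspot lines in green; each bar is 1 library. The Myod1 knockout, whose whole list is also the shortest, has the shortest bar in all 3 windows, at 8.22%, 6.38% and 2.03%. The H1 line has the longest, at 31.7%, 34.9% and 25.0%.

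Per length, the Chrnd-Chrng window was the most densely covered at every wild-type time, from 13.7% at -24 h to 28.0% at 0 h, and Chrnb1 the least, from 7.15% at 24 h to 13.6% at 0 h. In the wild-type 48 h library the Chrna1 window had more covered bases than 98.2% of 50 kb tiles, Chrnd-Chrng more than 99.0%, and Chrnb1 more than 92.8% of 30 kb tiles. In the Myod1 knockout the same windows exceeded 98.5%, 97.6% and 89.9% of tiles. These ranks count all tiles, also those without a peak. In the knockout 19.9% of 30 kb tiles had a peak, with a median of 624 covered bases, above the 608 of Chrnb1. The median of 50 kb tiles with a knockout peak was 731, below both other windows. With and without MyoD, the Chrna1 and Chrnd-Chrng windows thus stood in the upper part of the genome by covered bases.

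The Chrnd-Chrng window held blocks with opposite courses. At its low-coordinate end, the 3 named regions with a peak in all 12 libraries between 89071057 and 89079999 had fewer covered bases at 72 h than at -24 h. Further on, the regions at 89087166, 89099648 and 89102329 had more covered bases at 72 h than at -24 h, and at most 125 in the Myod1 knockout. A region near the high-coordinate end, 89108936 to 89112245, had a peak in every library.

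The region at 89071057 to 89074491 had 1387, 2170, 1738, 2065, 805, 1331 and 222 covered bases over the 7 wild-type times. Among the edited lines, H23 had 2972, H3 2382, H34 1925, H1 1573 and the Myod1 knockout 846. The 72 h library was the lowest of the 12 here, and the double deletion H23 the highest. The next region, 89075386 to 89077623, contained the strongest peak of the window in 6 of the 7 wild-type libraries, all but 72 h. It also did so in the Myod1 knockout, H23 and H34, but not in H1 and H3. The wild-type 48 h peak of 888 bp in this region had a fold enrichment of 29.7 and a −log10 p of 105, both the authors' values. It stood above 98.9% of that list. The region went from 1252 covered bases at -24 h to 718 at 72 h, with 749 in the Myod1 knockout. The region at 89077679 to 89079999 went from 1524 at -24 h to 558 at 72 h, with 482 in the knockout.

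The region at 89083069 to 89083771 had a peak at all 7 wild-type times, over 446, 589, 297, 480, 459, 402 and 135 bases in order of time. Its wild-type 48 h peak had a −log10 p of 30.3, above 83.0% of its list. There was no peak in the Myod1 knockout and none in H34, against 322 covered bases in H1, 250 in H3 and 372 in H23. The peak was thus called at every wild-type time and missing in 2 of the edited lines. The region at 89085614 to 89086995 had no peak at -24 and 24 h, and over the wild-type times 0, 703, 232, 838, 0, 276 and 288 covered bases. The same 2 edited lines lacked a peak there, while H1 had 1153, H3 551 and H23 175. Every list was also reduced to the same number of strongest peaks, that of the shortest (equal list length below). In those lists H1, H23 and wild-type cells at 72 h had no peak in this region either, and H3 had 236 covered bases.

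The region at 89087166 to 89089374 had 530, 1171, 1123, 1130, 1080, 1019 and 1701 covered bases over the wild-type times. The Myod1 knockout had none, H1 2037, H3 1594, H23 1260 and H34 1025. It was lowest in wild-type cells at -24 h, nearly level from 0 to 48 h, and without a peak in the knockout alone of the 12 libraries. At equal list length, H34 had none there either. At 72 h it held the strongest peak of the window, at 89087237 to 89088449, with a score above 98.7% of that list.

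The region at 89099648 to 89102218 had 259, 915, 978, 1432, 1519, 1446 and 1708 covered bases over the wild-type times. Values were larger at each time than at the one before, except at 48 h, and 72 h stood at 6.59 times -24 h. The Myod1 knockout had a single peak over 125 bases, H34 had 392, H23 1171, H3 1278 and H1 2567. The adjoining region at 89102329 to 89103569 had no peak at -24 h and 623, 603, 989, 692, 635 and 1115 covered bases at 0, 6, 12, 24, 48 and 72 h. It had no peak in the Myod1 knockout or in H34, and 1239 covered bases in H1, 798 in H3 and 948 in H23. Both regions were lowest in the same 3 libraries, the -24 h, Myod1 knockout and H34 libraries.

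Over the genome, 989 of the 20312 regions with a peak at all 7 times (4.87%) had at least 3 times as many covered bases at 72 h as at -24 h. Of the 13 such regions in the 3 windows, those at 89087166 (3.21 times) and 89099648 (6.59 times) did so. The reverse, a ratio of 72 h to -24 h of at most 0.333, held for 7.42% of the regions genome-wide and for those at 89071057 (0.16) and 89083069 (0.303). The median ratio was 0.862 in the windows and 0.895 over all regions, so the windows as a set did not lean towards growth. At 72 h more bases than at -24 h were covered in 5 of the 13 regions and in 40.2% of all regions.

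The region at 89108936 to 89112245 covered 1186 bases at -24 h, 1670 at 72 h and between 1465 and 2170 at the times between them. It had 990 in the Myod1 knockout and 2394 to 3310 in the hotspot lines. All 4 hotspot lines thus lay above the 7 wild-type values, and the knockout below them.

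**Figure D2:**
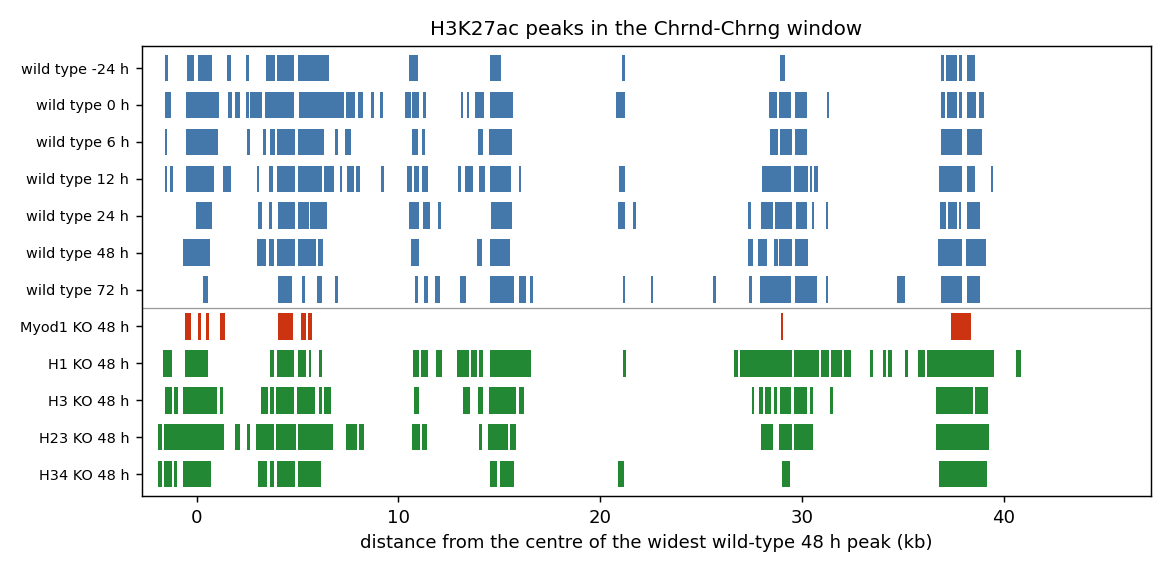
Peaks (bars, to scale) of 12 libraries (rows) in the Chrnd-Chrng window, by distance in kb from the centre of the widest wild-type 48 h peak; blue is wild type, red the Myod1 knockout and green the hotspot lines. The blocks near 0 and near 38 kb are present in every row, while those near 15 and 30 kb are empty or hold 1 narrow peak in the Myod1 knockout.

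The Chrna1 window was organised around a block that every library shared. The region at 73416146 to 73420994 had 2012, 3001, 3124, 3068, 3130, 3328 and 2835 covered bases over the wild-type times. Among the edited lines, H1 had 4849, H3 4092, H23 3426, H34 3273 and the Myod1 knockout 1652. The knockout was the lowest of the 12, followed by -24 h. In wild-type cells at 48 h the block was mostly a single peak of 2940 bp at 73416855 to 73419794, with a fold enrichment of 30.7 and a −log10 p of 110, above 99.1% of that list. The strongest peak of the window lay in this block in all 12 libraries, and its rank in its own list was lowest in the Myod1 knockout, above 92.1% of peaks.

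Further blocks flanked it on the high-coordinate side. The region at 73422894 to 73424816 had 1017 covered bases at -24 h, 637 at 72 h and 1034 in the Myod1 knockout, where the value was close to the 1045 of wild-type cells at 48 h. The region at 73428868 to 73432282 had 2287 at -24 h and 2239 at 72 h, with 1927 in wild-type 48 h cells and 1175 in the knockout. Both had a peak in all 12 libraries, so the knockout kept all 3 main blocks around Chrna1.

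On the low-coordinate side, between 73392445 and 73408997, 16.6 kb held no peak in any library. Beyond it the region at 73390398 to 73392444 had 133, 115, 194, 156 and 127 covered bases up to 24 h, 1174 in the 48 h library and no peak afterwards. H1 had 786 there, H3 1083, H23 2016, H34 1968 and the Myod1 knockout 125. A single wide peak lay there in 3 lists, of 1174 bp in wild type, 2016 bp in H23 and 1968 bp in H34. H3 had peaks of 488 and 595 bp and H1 had 3 weak ones of 130, 250 and 406 bp, whose sum fell to 380 with a q under 0.001. The knockout value lay among those of the wild-type times up to 24 h. At equal list length, set by the knockout list, the knockout kept its 125 covered bases and those wild-type times had 0. All lists from 48 h have a 10-column format, and the wild-type lists 24 h before and after have 5 columns. Format and time cannot be told apart for the wild-type 48 h library. The region at 73384787 to 73385962, which crosses the edge of the window, had 116 covered bases at 12 h, 577 in wild-type 48 h cells, 945 in H23 and 846 in H34, and no peak in the other 8 libraries.

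**Figure D3:**
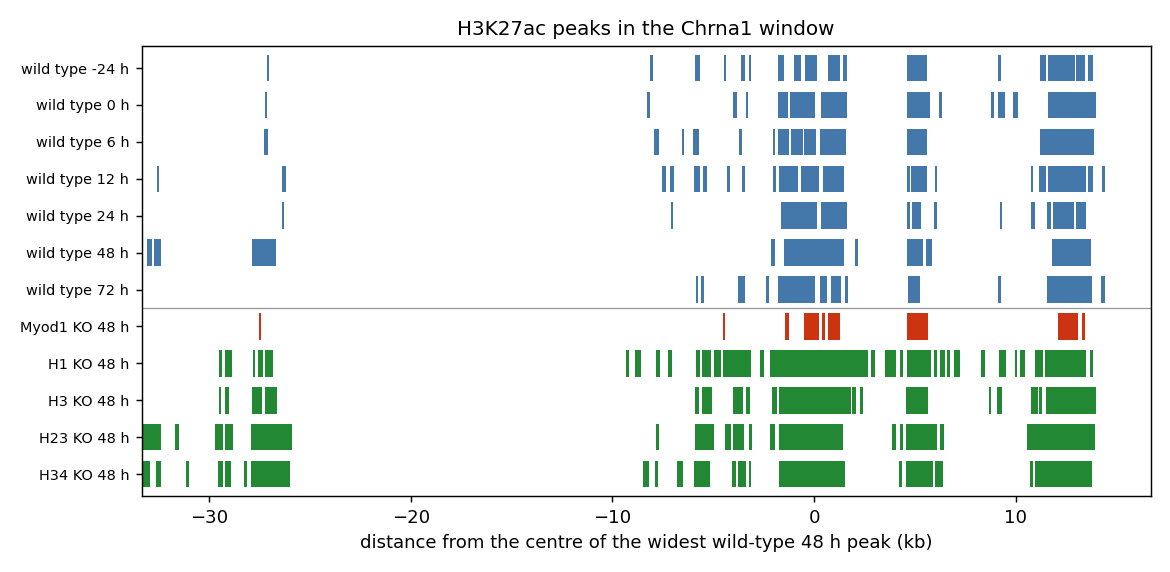
Peaks (bars, to scale) of 12 libraries (rows) in the Chrna1 window, by distance in kb from the centre of the widest wild-type 48 h peak; blue is wild type, red the Myod1 knockout and green the hotspot lines. The blocks near 0, 5 and 13 kb are present in every row, and the widest bars left of the empty stretch are in the wild-type 48 h, H23 and H34 rows.

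The Chrnb1 window had the fewest regions, 7, all within its high-coordinate part. The 18.4 kb from 69590000 to 69608409 held no peak in any library. The region at 69608972 to 69610518 had 1156, 1227, 1247, 962, 976, 1480 and 997 covered bases over the wild-type times. Among the edited lines, H1 had 1510, H23 1418, H3 1079, H34 940 and the Myod1 knockout 608. It held the strongest peak of the window in all 12 libraries, and its wild-type 48 h peak of 1480 bp, with a fold enrichment of 35.0 and a −log10 p of 131, stood above 99.5% of that list and was the strongest of the 29 wild-type 48 h peaks in the 3 windows.

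Both other named regions of the window had a peak at all 7 wild-type times and none in the Myod1 knockout. The region at 69610637 to 69612328 had between 357 (72 h) and 1131 (0 h) covered bases in wild-type cells, 1341 in H1, 638 in H3, 311 in H34 and no peak in H23. The region at 69614604 to 69617791 had 607, 1077, 906, 1380, 406, 420 and 820 covered bases over the wild-type times. H1 had 2954, H3 2116, H23 2778 and H34 1754, so all 4 hotspot lines lay above all 7 wild-type values. The wild-type 48 h peaks in it were weak, standing above only 9.26% and 16.9% of that list by −log10 p. At equal list length wild-type cells had 0 covered bases at 48 h in both regions, as the knockout did, so the contrast with the knockout at that time was lost.

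**Figure D4:**
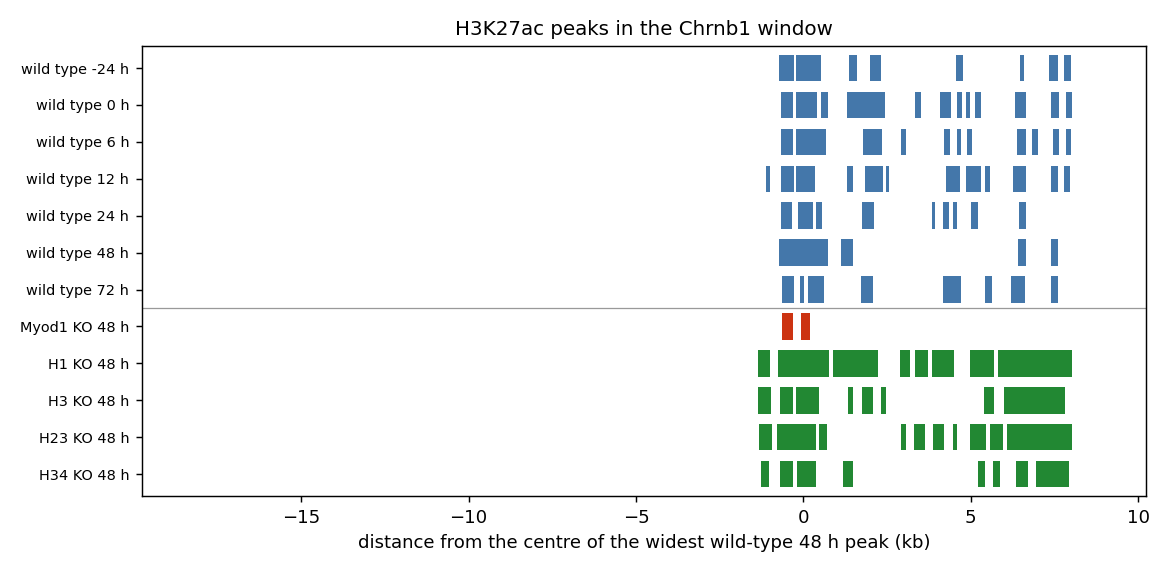
Peaks (bars, to scale) of 12 libraries (rows) in the Chrnb1 window, by distance in kb from the centre of the widest wild-type 48 h peak; blue is wild type, red the Myod1 knockout and green the hotspot lines. The Myod1 knockout row holds 2 peaks, both near 0 kb, while the block near 7 kb is widest in the hotspot lines.

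Few regions followed an on-or-off course, in these loci as over the genome. A region counted as late-gained when its peak was absent at -24 and 0 h but called at both 24 and 72 h, which fitted 1.14% of all regions, and as early-lost in the opposite case, which fitted 2.67%. The windows held 1 of each among 73, both in the Chrnd-Chrng window and both narrow. The late-gained one, 89084549 to 89084872, had 161 covered bases at 24 h, 226 at 72 h and 291 in H1, and no peak in the wild-type 48 h library. It was gone from every list at equal list length, where another region, 89103685 to 89104060, met the late-gained rule instead. The early-lost one, 89075157 to 89075349, had 157, 115 and 146 covered bases at -24, 0 and 6 h and 148 in H23. A peak at all 7 times was found in 13 of 73 regions (9.61% over the genome) and in all 12 libraries in 9 (7.69% over the genome). A peak in 1 library alone was found in 28 of 73, or 38.4%, against 47.0% genome-wide.

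Over all 73 regions, 21 (28.8%) first had a wild-type peak at -24 h, against 19.6% of regions genome-wide, and 12 (16.4%) at 0 h, against 7.45%. Peaks in edited lines alone made up 26 (35.6%), against 52.1%. Around Chrna1, the first wild-type peak came at -24 h in 8 regions, 0 h in 3, 6 h in 2, 12 h in 4 and 72 h in 1, and 16 had peaks in edited lines alone. Around Chrnd and Chrng it came at -24 h in 9, 0 h in 8, 24 h in 2 and 72 h in 3, with 10 in edited lines alone. At Chrnb1, 4 began at -24 h and 1 each at 0, 6 and 12 h. No region of the 3 windows had its first wild-type peak at 48 h, as 6.43% of all regions did. This count is of merged regions. The wild-type 48 h peaks at 73385263 to 73385498 and 73420329 to 73420519 overlapped no peak of another wild-type time. They lay in regions that held an earlier wild-type peak elsewhere.

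The wild-type 48 h library had 29 peaks in the windows, 9 around Chrna1, 16 around Chrnd and Chrng and 4 at Chrnb1. Intervals below are 95% Wilson intervals, which cover counting error only, and neighbouring peaks are not independent. At -24 h 9 of the 29 (31.0%, 17.3 to 49.2) had no peak, against 48.9% of the 71281 peaks of the list. The share was 20.7% (9.85 to 38.4) at 0 h, with 41.8% of the list, and the same at 6 h, with 40.9%. It was lowest at 12 h, 13.8% (5.5 to 30.6) with 37.1% of the list. At 24 h it was 31.0% (17.3 to 49.2) with 47.3% of the list, and at 72 h 34.5% (19.9 to 52.7) with 50.8%. The share of the receptor loci lay below that of the list at each of these times, and at -24, 24 and 72 h its interval reached above the list's.

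In the Myod1 knockout 17 of the 29 (58.6%, 40.7 to 74.5) had no peak, and so had 57.5% of the whole list. The share missing at the receptor loci was therefore near that of the genome, which is no result about these loci. Per window it was 4 of 9 around Chrna1 (44.4%, 18.9 to 73.3), 10 of 16 around Chrnd and Chrng (62.5%, 38.6 to 81.5) and 3 of 4 at Chrnb1 (75.0%, 30.1 to 95.4), with intervals that overlapped throughout. These shares rested partly on weak wild-type peaks. At equal list length, set by the knockout list, they were 2 of 7 (28.6%) around Chrna1, 9 of 15 (60.0%) around Chrnd and Chrng and 0 of 1 at Chrnb1, against 49.8% of the list. In bases, 47.2%, 27.7% and 26.6% of the wild-type 48 h peaks were covered in the knockout, against 30.6% over the list. The 17 peaks without a knockout peak had a median width of 243 bp and a median −log10 p of 9.86, the other 12 one of 1080 bp and 44.3. In the whole list these were 327 bp and 9.86 against 669 bp and 21.6. The widest of the 17 was the peak at 89087236 to 89088254, with 1019 bp and a −log10 p of 55.0, the largest of the 17. Of the 13 regions with a peak at all wild-type times, 4 had none in the knockout, against 17.3% over the genome. These were the regions at 89083069 and 89087166 around Chrnd and Chrng and those at 69610637 and 69614604 at Chrnb1. With lists of equal length only the first 2 were left, of 11 regions, against 1921 of 16515 over the genome. The knockout added little, since 2 of its 20 peaks in the windows (10.0%, 2.79 to 30.1) overlapped no wild-type 48 h peak, against 25.5% of its list.

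Of the 29, the H1 line lacked 3 (10.3%, 3.58 to 26.4) and 16.2% of the whole list. The H3 line lacked 2 (6.9%, 1.91 to 22.0) and 26.0% of the list, and the H23 line 4 (13.8%, 5.5 to 30.6) and 18.2%. The H34 line lacked 8 (27.6%, 14.7 to 45.7) and 18.0% of the list. The H34 absences lay around Chrnd and Chrng in 6 cases of 16 (37.5%, 18.5 to 61.4), against 20.8% of wild-type 48 h peaks on chromosome 1. In the same window H3 lacked none of 16 (upper limit 19.4%), H23 2 and H1 1. The H23 count (12.5%) was below its share of the list, 18.2%. The 6 missing in H34 were at 89083359, 89086598, 89100059, 89100568, 89101321 and 89102386 (peak starts), and each of them lacked a Myod1 knockout peak too. Over the whole list this was so for 12195 of the 12809 peaks missing in H34, so it sets these loci little apart. Lists of equal length gave 7 of 15 in H34, 3 of 15 in H3, 3 of 15 in H23 and 4 of 15 in H1. The shares of the list were then 27.8%, 31.1%, 25.1% and 28.3%, and the H3 and H23 counts were the same. In those lists H3 also lacked 2 of 7 around Chrna1 and 0 of 1 at Chrnb1. Over the windows it thus lacked a larger share than the 6.9% of the lists as deposited.

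**Figure D5:**
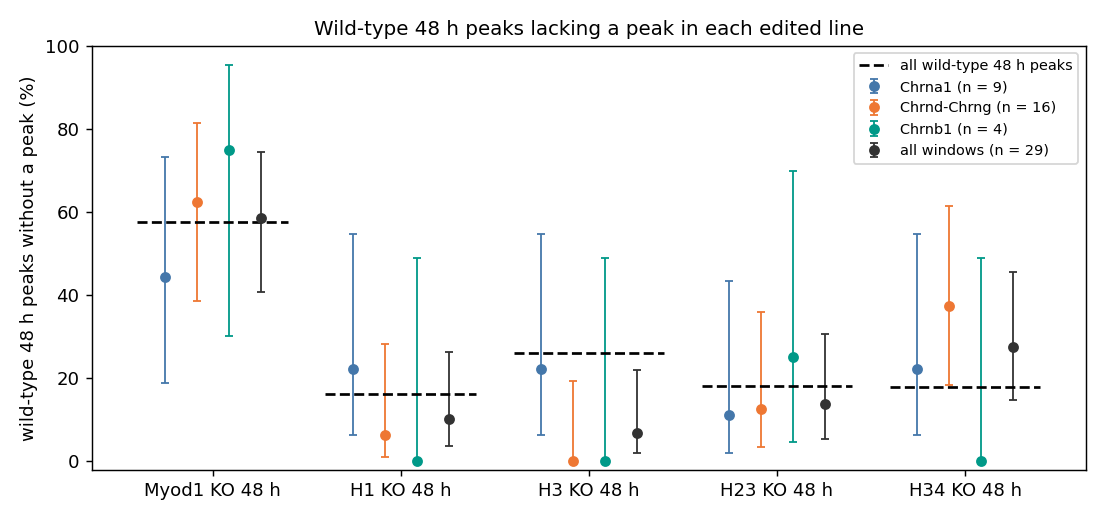
Percent of wild-type 48 h peaks with no overlapping peak (y axis) in each edited line (x axis), per window and over all windows; points are shares of 1 library, error bars 95% Wilson intervals and dashed lines the share over all 71281 wild-type 48 h peaks. In the Myod1 knockout the point for all windows, at 58.6%, sits on the dashed line at 57.5%.

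Over the 5 edited lines together, 12 of the 29 peaks had a peak in every line (38.8% of the list), and 5 lacked one in the Myod1 knockout alone (23.7% of the list), of which lists of equal length left 0 of 23 (11.3% of the list). Another 5 lacked one in the Myod1 knockout and H34 and in no other line, or 17.2% against 2.35% of the list, a pattern singled out after its values were seen, which held for 3 of 23 peaks, or 13.0%, at equal list length, against 2.4% of the list. A peak in neither of these 2 lines, whatever the others held, was found for 8 of the 29, against 17.1% of the list. All 12 peaks that the Myod1 knockout kept were kept by all 4 hotspot lines, which was so for 91.2% of such peaks in the list. At equal list length it was so for 10 of 12, against 81.7%. The hotspot lines also had window peaks that overlapped no wild-type 48 h peak, whatever the other wild-type times held. These were 43 of 66 for H1 (55.6% of its list), 23 of 51 for H3 (48.6%), 24 of 45 for H23 (59.4%) and 21 of 41 for H34 (56.2%). Most of those of H1 lay around Chrna1, at 23 of its 30 peaks there (76.7%, 59.1 to 88.2). In that window H3 had 11 of 18 (61.1%, 38.6 to 79.7), H23 11 of 17 (64.7%, 41.3 to 82.7) and H34 14 of 20 (70.0%, 48.1 to 85.5). These intervals overlapped, and H1 had the most peaks in the window.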

How the data were processed

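H3K27ac peak lists of 12 libraries were used. Peaks were called with MACS2 2.1.0 on mm9, per the submitters' processing notes, and the aligner, control library and cutoffs are not given in the sources used here. The authors' deposited lists of 6 times have 5 columns, the last a score of unstated unit. The 6 deposited 48 h lists have 10 columns, which from their values and order hold a score, a fold enrichment (ratio), −log10 p and −log10 q values and the summit. Cutoffs differed: −log10 p reached down to 4.13 in the wild-type list, 4.02 in that of the Myod1 knockout and 3.01 to 3.03 in those of the hotspot lines. Read depth was unknown. Whole lists held 55585 to 137960 peaks. The authors' values were used only within a list.

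Peaks overlapping by 1 base were shared. Regions were merged over all 12 lists, and positions count from 1. The report names every region with a wild-type 48 h peak or classed late-gained or early-lost, and single peaks chosen after their values were seen. Tiles cover the chromosomes up to the last peak. The windows, classes and alternatives were chosen with earlier results of these data known. Synapse genes planned beside the members were not looked at without an mm9 annotation. The overlap code was tested on simulated data. Python 3.11.15, numpy 2.4.6, pandas 2.3.3, scipy 1.17.1 and matplotlib 3.10.9 were used.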

Additional observations from a re-analysis of the deposited data

How the results depend on the processing

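Depth was unknown and each condition had 1 library, so weak peaks and differences between libraries carry no replicate error. No paired analysis was possible because no condition was repeated. Of 116 alternatives over 34 results (first times, region classes, peak counts, covered bases and shares without a peak), 104 stayed within 1.5 times the value or within the interval of the share, and 12 moved. The intervals of the shares are wide. A share inside its interval counted as held even where it rose, as that of H3 did with lists of equal length. All 34 results held with a q under 0.001 (or a score of at least 5) and with windows widened by 10 kb. A −log10 p of at least 5, added after the data were seen, was tried only on the 5 shares without a peak, which held. With lists of equal length, made of their strongest peaks, the windows held 24 peaks in H1, 23 in H23, 18 in H34, 31 in H3, 33 in both the 0 h and 12 h lists and 27 in the 6 h list. There, the share without a peak in H1 was 30.4%, 0 regions were early-lost and the late-gained count stayed at 1 with a different region. The equal-length values for all-time regions and for patterns over the edited lines were added after the data were seen. Merging within 1 kb left 0 late-gained and 0 early-lost regions, and an overlap of 50% gave 2 early-lost. For covered bases of named regions, 3 of 228 values moved with the stricter threshold and 36 of 228 with equal numbers of peaks. Among the latter, H34 had 0 covered bases at 89087166 and 0 at 89099648. The wide region at 73390398 had 0 in H1 and at all wild-type times but 48 h, while the Myod1 knockout kept its 125.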
